A study of Mus musculus with 8 samples.

Results

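The genes Pcp4, Sertm1, Klhdc8a, Mme, Coch, Matn3, Slco4a1, Cd34 and Fxyd2 were followed across mouse astrocyte cultures. These 9 of 23420 gene IDs were picked because their level in conventional culture was far above that in the other culture at day 5, at day 32 or at both. The choice used the level of each gene in the 8 libraries and had no stated threshold, so the levels of these genes and their differences are given below as a description with no test. All 9 passed the filter on low values (1 TPM, the transcript abundance per length scaled to the same total in each library, in at least 2 libraries), as did 14904 genes in all. Slco4a1 passed it through the conventional culture alone, so counts over the 9 support nothing about the cultures.

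Primary data came from mouse astrocytes grown either in conventional culture (CV) or in a culture labelled MGS, letters that the labels do not explain. The sample descriptions call CV hard and MGS soft. The 4 groups were CV at day 5, MGS at day 5, CV at day 32 and MGS at day 32, each with 2 libraries of total RNA, and the labels name no strain, age, drug or genetic change. The labels do not say that the libraries of a group came from separate cultures, so the p-values cover no more than the spread between libraries, and that spread may be technical.

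The 9 genes do different work. Pcp4 encodes a small protein that binds calmodulin and tunes calcium signalling, and Klhdc8a encodes a protein with kelch repeats. Mme, Cd34 and Sertm1 encode proteins of the cell membrane: neprilysin, a peptidase that degrades amyloid beta and other peptides, a sialomucin best known on blood progenitors and endothelium, and a serine-rich protein of little known function. Coch and Matn3 encode secreted matrix proteins, cochlin of the inner ear and matrilin-3 of cartilage. Slco4a1 encodes an organic anion and thyroid hormone transporter, and Fxyd2 encodes the gamma subunit of the sodium pump, the Na,K-ATPase.

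The files held between 2.15 and 4.69 gigabases of aligned sequence per library, and the 4 CV libraries were the shallower ones (2.15 to 2.99 gigabases). Markers of astrocytes were present in all libraries, with none of the 9 listed at 0, at a summed level of 3499 to 3692 TPM in CV at day 5, 16910 to 17100 in MGS at day 5, 1473 to 1890 in CV at day 32 and 13810 to 13840 in MGS at day 32. The sum in MGS was mostly Gfap, at means of 13730 TPM at day 5 and 9588 at day 32. Of the 9, 5 were higher in MGS at day 5 and 1 lower, and 8 and 1 at day 32 (limma, Benjamini-Hochberg adjusted p under 0.05). The lower 1 was Aldh1l1 at both days. Markers of microglia summed to 79.2 to 97.9 TPM in CV at day 5, 258 to 262 in MGS at day 5, 2751 to 2799 in CV at day 32 and 370.1 to 376 in MGS at day 32. None of the 8 was at 0 in both libraries of a group, but Aif1 was at 0 in replicate 2 of CV at day 5. In such bulk libraries fewer cells of a type and less RNA per cell cannot be told apart.

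Several patterns of level are visible across the 9 genes. Klhdc8a and Cd34 were above MGS in CV at both days, as were Sertm1 and Coch by a smaller margin at day 32. Pcp4, Mme and Matn3 were above MGS in CV at day 5 only. Slco4a1 and Fxyd2 were high in CV at day 32 only, and Fxyd2 was lower in CV than in MGS at day 5. The description highest in conventional culture therefore held for the highest of the 4 groups of each gene, and not for each day: at day 32 the levels of Pcp4 and Matn3 were above CV in MGS, and those of Mme overlapped.

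**Figure D1:**
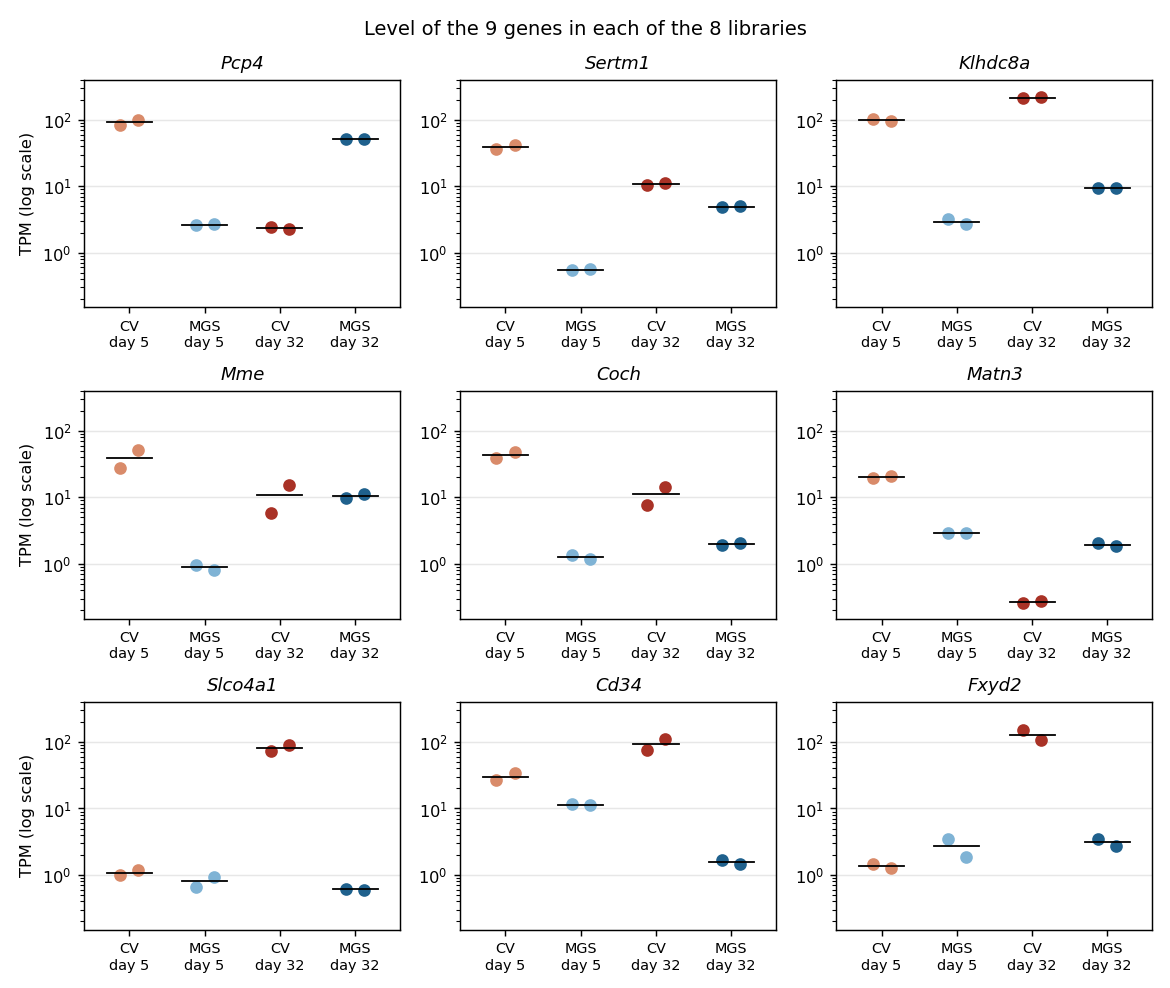
Level of each of the 9 genes in each of the 8 libraries, in TPM on a log axis, by culture and day. Points are libraries and lines are the means of 2 libraries. The highest group is CV at day 5 for Pcp4, Sertm1, Mme, Coch and Matn3 and CV at day 32 for Klhdc8a, Slco4a1, Cd34 and Fxyd2.

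At day 5 the libraries of the cultures did not overlap for any of the 9 genes: 8 were lower in MGS (background, 49.2% of all genes tested had both MGS libraries below both CV libraries) and 1, Fxyd2, was higher (background, 34.4%). At day 32, 6 were lower in MGS without overlap (background, 20.9%), 2 were higher (background, 63.6%) and 1 overlapped. The background of calls in these contrasts, across all genes tested (limma, Benjamini-Hochberg adjusted p under 0.05), was 48.9% at day 5 and 67.6% at day 32. The genes were chosen on these contrasts, so nothing is read from their counts. The median difference of the 9 genes, MGS minus CV on the scale of log2(TPM + 1), was -4.30 at day 5 and -1.95 at day 32, beside -0.14 and 0.56 for all genes tested.

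The day 32 minus day 5 difference within a culture is made of the same levels on which the genes were chosen, so for the 9 genes it is also given as a description with no test. In CV the mean level was higher at day 32 for Klhdc8a, Slco4a1, Cd34 and Fxyd2 and lower for the other 5. Across all genes tested, 53.7% were called in CV, 16.0% higher and 37.7% lower at day 32, and nothing is read from the 9 against it. Of those calls, 29.8% were higher at day 32, and 50.4% were after median-of-ratios scaling. That scaling removed a median of -0.31 over all genes, and the differences of the 9 genes are also given below relative to that median. Without the replicate 2 library of CV at day 5 the calls over all genes dropped from 7997 to 4748.

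In MGS the mean level was higher at day 32 for Pcp4, Sertm1, Klhdc8a, Mme and Coch, lower for Matn3, Slco4a1 and Cd34, and of either sign for Fxyd2 depending on the scaling. Coch also changed sign, with quantile normalization. Across all genes tested, 42.5% were called in MGS, 35.0% higher and 7.53% lower at day 32. The share of those calls that were higher was 82.3%, and 50.1% after median-of-ratios scaling, which removed a median of 0.36 over all genes. The 6335 calls over all genes in MGS became 2371 and 2668 without replicates 1 and 2 of MGS at day 5, 2336 and 2180 without replicates 1 and 2 of MGS at day 32, and 9720 and 9733 without replicates 1 and 2 of CV at day 32.

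**Figure D2:**
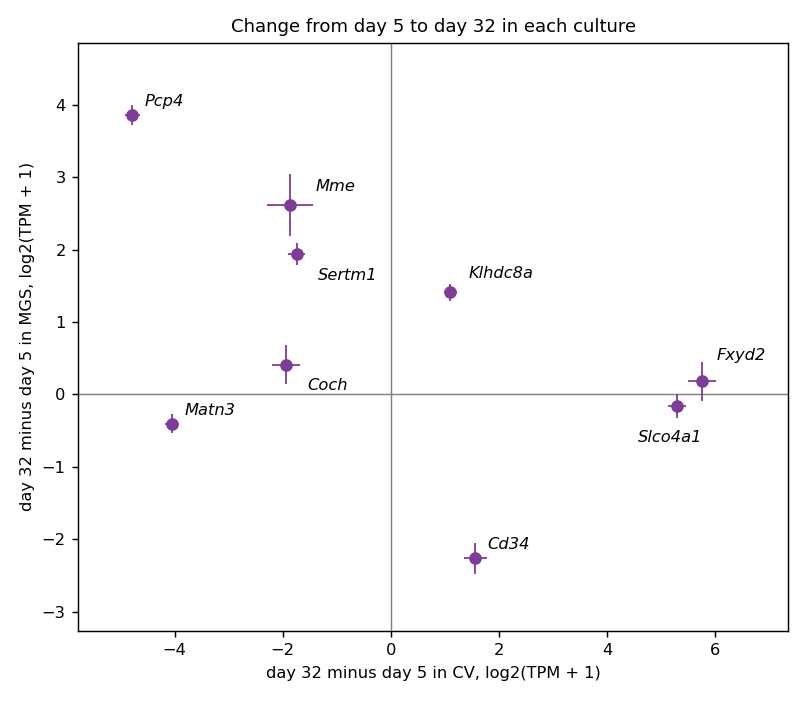
Change from day 5 to day 32 in CV (horizontal axis) and in MGS (vertical axis) for each of the 9 genes, as a difference of log2(TPM + 1) with the standard error of the model as bars. Klhdc8a lies above 0 on both axes, Pcp4, Sertm1 and Mme lie below 0 in CV and above 0 in MGS, and Cd34 lies above 0 in CV and below 0 in MGS.

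Pcp4, the calmodulin regulator (chromosome 16, 96467606 to 96525793, plus strand, mm10), was lower at the later day in CV and higher at it in MGS. Its level was 83.8 and 99.1 TPM in CV at day 5, 2.61 and 2.70 in MGS at day 5, 2.41 and 2.30 in CV at day 32, and 52.2 and 51.9 in MGS at day 32. The high groups were thus CV early and MGS late, and none of the 4 groups overlapped, although the lowest pair differed by only 1.12-fold in mean level. Day 32 minus day 5, the difference for Pcp4 in CV was -4.78 on the scale of log2(TPM + 1), with a standard error (SE) of 0.14 from the model, and -4.47 relative to the median gene. In MGS it was 3.86 (SE 0.14; 3.50 relative to the median gene). The CV to MGS ratio of mean TPM was 34.5 at day 5 and 0.0453 at day 32. Markers of neurons, cells in which Pcp4 is well known, summed to 32.4 to 33.3 TPM in CV at day 5, 102 to 103 in MGS at day 5, 25.8 to 26.8 in CV at day 32 and 90.7 to 91.2 in MGS at day 32, and Pcp2 of Purkinje cells was listed at 0 in all of them. The neuron sum in MGS was mostly Pvalb and Tubb3, at means of 60.3 and 35.5 TPM at day 5 and 52.6 and 30.8 at day 32. Of 7 tested neuron markers, 3 were called higher in MGS at day 5 and 2, Syt1 and Car8, lower. At day 32 these counts were 4 and 0. The part of neurons in the levels of Pcp4 was not tested.

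Klhdc8a, the kelch repeat gene (chromosome 1, 132298626 to 132307357, plus strand), was the gene of the 9 with the highest level in any group. It measured 102 and 96.6 TPM in CV at day 5 and 3.17 and 2.71 in MGS at day 5. At day 32 it measured 209 and 219 TPM in CV and 9.37 and 9.53 in MGS. All 4 groups were separate, and both CV groups lay above both MGS groups. Its level was higher at day 32 in both cultures, with differences of 1.10 in CV (SE 0.12; 1.41 relative to the median gene) and 1.41 in MGS (SE 0.12; 1.05 relative to the median gene). The CV to MGS ratio was 33.8 at day 5 and 22.6 at day 32.

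Sertm1, the serine-rich membrane protein gene (chromosome 3, 54897069 to 54915887, minus strand), was at 36.0 and 41.6 TPM in CV at day 5 and 0.542 and 0.562 in MGS at day 5. At day 32 it was at 10.5 and 11.2 TPM in CV and 4.88 and 5.00 in MGS. The cultures drew closer with time, the CV to MGS ratio being 70.3 at day 5 and 2.20 at day 32, with no overlap between any groups. Day 32 minus day 5, Sertm1 differed by -1.74 in CV (SE 0.15) and by 1.94 in MGS (SE 0.15). Relative to the median gene these differences were -1.44 and 1.57.

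Mme, the neprilysin gene (chromosome 3, 63295872 to 63382231, plus strand), was at 27.6 and 51.3 TPM in CV at day 5 and 0.963 and 0.809 in MGS at day 5. At day 32 it was at 5.80 and 15.6 TPM in CV and 9.91 and 11.2 in MGS. CV at day 5 was the highest group and MGS at day 5 the lowest, while both MGS libraries at day 32 fell between the CV libraries of that day. The MGS minus CV difference at day 32 was 0.12 on the log2 scale (SE 0.43, not tested) and was below 0 after median-of-ratios scaling (-0.45), quantile normalization (-0.82), correction for length and GC content (-1.13) or with FPKM (-0.21), and without replicate 1 of CV at day 32 (-0.52). The difference of day 32 minus day 5 was -1.86 in CV (SE 0.43; -1.56 relative to the median gene) and -1.43 without replicate 2 of CV at day 5. In MGS it was 2.62 (SE 0.43; 2.25 relative to the median gene).

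Coch, the cochlin gene (chromosome 12, 51593341 to 51605773, plus strand), was at 39.7 and 47.7 TPM in CV at day 5 and 1.35 and 1.18 in MGS at day 5. The levels at day 32 were 7.76 and 14.4 TPM in CV and 1.94 and 2.09 in MGS. Both CV groups were above both MGS groups, and no groups overlapped. Day 32 minus day 5, Coch differed by -1.94 in CV (SE 0.27; -1.63 relative to the median gene). In MGS the difference was 0.41 (SE 0.27), 0.05 relative to the median gene and -0.02 after quantile normalization.

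The levels of Sertm1, Mme and Coch followed each other across the 8 libraries more closely than most pairs of the 9 genes, with Pearson r of log2(TPM + 1) of 0.945 for Sertm1 and Mme, 0.940 for Sertm1 and Coch and 0.841 for Mme and Coch. These are descriptions over libraries that share 4 groups, of levels on which the genes were chosen, so nothing is read from them. The 3 genes also differed: day 32 minus day 5 in MGS was 2.62 for Mme and 0.41 for Coch. The 250 bases before the start of each of the 3 are printed below as examples, followed by those of Slco4a1, whose level in CV was higher at day 32 where theirs was lower. The sequences are from the RefSeq promoter table for GRCm38.p6, which matched 8 of the 9 genes at the start that the files give, and did not list Fxyd2. They are read 5′ to 3′ on the strand of the gene, at chr3:54915888-54916137 (minus strand) for Sertm1, chr3:63295622-63295871 (plus) for Mme, chr12:51593091-51593340 (plus) for Coch and chr2:180460728-180460977 (plus) for Slco4a1. Capitals mark matches on either strand to GGAATG or CANNTG, the motifs named in the paragraph after them.
Sertm1: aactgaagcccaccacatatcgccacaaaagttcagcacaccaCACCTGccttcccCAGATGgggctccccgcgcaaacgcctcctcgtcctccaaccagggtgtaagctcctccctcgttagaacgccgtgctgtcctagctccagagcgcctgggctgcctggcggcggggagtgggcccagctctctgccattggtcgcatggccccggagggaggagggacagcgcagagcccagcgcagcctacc
Mme: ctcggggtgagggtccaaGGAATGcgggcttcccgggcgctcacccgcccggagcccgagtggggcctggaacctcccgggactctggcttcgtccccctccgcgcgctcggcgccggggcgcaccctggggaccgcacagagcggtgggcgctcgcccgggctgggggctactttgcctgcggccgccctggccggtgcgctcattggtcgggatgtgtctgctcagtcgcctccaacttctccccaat
Coch: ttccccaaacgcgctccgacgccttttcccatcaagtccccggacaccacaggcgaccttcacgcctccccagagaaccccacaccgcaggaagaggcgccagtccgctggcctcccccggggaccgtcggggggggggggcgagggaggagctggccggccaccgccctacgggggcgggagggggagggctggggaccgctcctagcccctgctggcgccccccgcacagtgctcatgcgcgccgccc
Slco4a1: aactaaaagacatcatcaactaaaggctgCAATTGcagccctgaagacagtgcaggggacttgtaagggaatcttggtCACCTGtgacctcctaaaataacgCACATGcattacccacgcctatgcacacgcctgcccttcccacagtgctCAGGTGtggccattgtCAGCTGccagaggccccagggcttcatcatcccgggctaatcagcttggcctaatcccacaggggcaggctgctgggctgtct

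The E-box CANNTG was found 2 times before the start of Sertm1 and 5 times before that of Slco4a1, and in neither Mme nor Coch over 250 bases before to 50 after the start. Klhdc8a had it before the start and Pcp4 after the start only, which makes 4 of the 8 genes. The E-box was present in 72.3% of the 32851 promoters of the same length in the table. GGAATG, the letters of a TEAD site, matched in Mme and Matn3 and in 14.7% of all promoters. TGANTCA, the AP-1 letters, matched in Mme, after the start, and in 7.81% of all promoters, and TATAAA matched in Coch, after the start, and in 13.6% of all. CAGACA, the SMAD letters, matched in 4 of the 8 genes (21.0% of all promoters), GGGNGG, the GC-box letters, in 8 of 8 (68.6%), and TGACGTCA, the cyclic AMP response element, in 0 of 8 (1.79%). Both strands were searched, motifs could overlap, and a match is only a match of letters. No motif of the 7 was shared by Sertm1, Mme and Coch other than GGGNGG.

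Matn3, the matrilin-3 gene (chromosome 12, 8947929 to 8972028, plus strand), was at 19.4 and 20.8 TPM in CV at day 5 and 2.92 and 2.88 in MGS at day 5. At day 32 it was at 0.258 and 0.278 TPM in CV and 2.04 and 1.86 in MGS. Matn3 thus had both the highest and the lowest of its 4 groups in CV, with no overlap between groups. In CV the mean was 20.1 TPM at day 5 and 0.268 at day 32, a log2 difference of -4.05 (SE 0.13; -3.75 relative to the median gene). In MGS the difference was -0.41 (SE 0.13; -0.77 relative to the median gene).

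Slco4a1, the thyroid hormone transporter gene (chromosome 2, 180460978 to 180474853, plus strand), was high in a single group. Its level was 0.999 and 1.17 TPM in CV at day 5, 0.651 and 0.948 in MGS at day 5, 72.9 and 90.4 in CV at day 32, and 0.621 and 0.595 in MGS at day 32. Both libraries of CV at day 32 were above 70 TPM and the other 6 were below 1.2. Its mean TPM in CV was 75.2 times as high at day 32 as at day 5, a log2 difference of 5.30 (SE 0.17; 5.61 relative to the median gene). In MGS the difference was -0.16 (SE 0.17; -0.52 relative to the median gene).

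Fxyd2, the sodium pump subunit gene (chromosome 9, 45399709 to 45410278, plus strand), had the same high group. It was at 1.48 and 1.27 TPM in CV at day 5, 3.48 and 1.89 in MGS at day 5, 151 and 107 in CV at day 32, and 3.51 and 2.69 in MGS at day 32. The libraries of CV at day 32 stood apart from the other 6, and the MGS groups overlapped each other. Day 32 minus day 5, Fxyd2 differed by 5.76 in CV (SE 0.27; 6.06 relative to the median gene) and by 0.18 in MGS (SE 0.27; -0.18 relative to the median gene). The MGS value was below 0 after median-of-ratios scaling (-0.14), quantile normalization (-0.32) or with FPKM (-0.01), and without replicate 2 of MGS at day 5 (-0.13). The files give Fxyd2 a mean depth per base of 25.8 and 11.2 in CV at day 32 and of 0.182 to 0.897 elsewhere, so its low levels rest on few reads. Its depth was 0.098 to 0.133 of what its FPKM would give at the ratio shared by most genes of a library, while that share was 0.929 or more for the other 8 genes, so its TPM is uncertain as a level against other genes.

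Cd34, the sialomucin gene (chromosome 1, 194938821 to 194961292, plus strand), was at 26.9 and 33.7 TPM in CV at day 5 and 11.6 and 11.1 in MGS at day 5. The day 32 libraries held 74.7 and 110.1 TPM in CV and 1.67 and 1.47 in MGS. The groups did not overlap, and the cultures moved apart with time, from a CV to MGS ratio of 2.67 to one of 58.9. Day 32 minus day 5, Cd34 differed by 1.56 in CV (SE 0.21; 1.87 relative to the median gene) and by -2.27 in MGS (SE 0.21; -2.63 relative to the median gene). Gm16897 overlaps Cd34 on the other strand at a mean of 0.276 to 1.22 TPM per group, and whether reads were assigned by strand is not given in the sources used here.

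**Figure D3:**
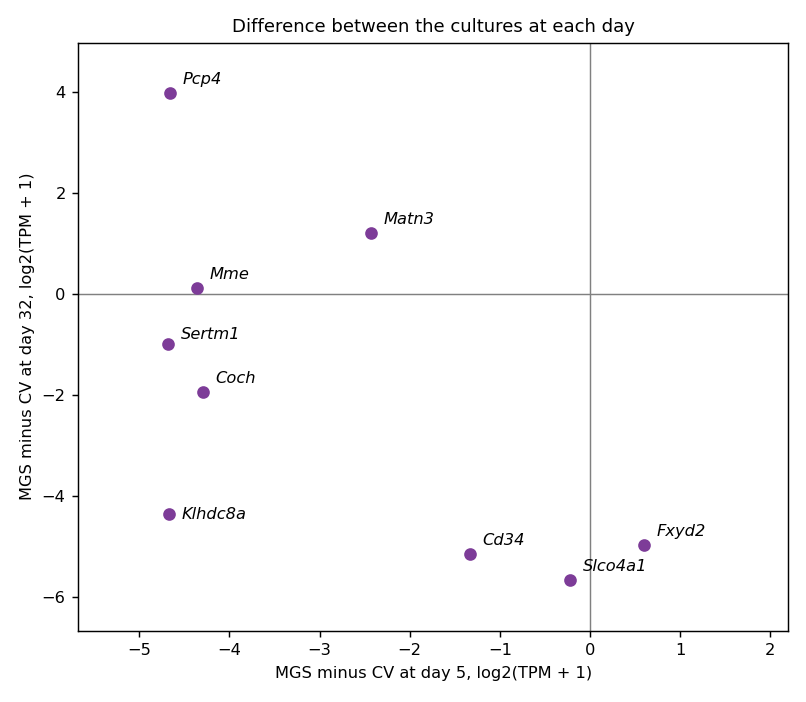
MGS minus CV difference of each of the 9 genes at day 5 (horizontal axis) and at day 32 (vertical axis), on the scale of log2(TPM + 1), as a description of the contrasts the genes were chosen on. Klhdc8a is low on both axes, Pcp4 is at -4.66 and 3.98, and Slco4a1 and Fxyd2 are near or above 0 at day 5 and below -4.9 at day 32.

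The cell types best known for Cd34, Slco4a1 and Fxyd2 were measured by marker lists. Endothelial markers summed to 37.9 to 43.5 TPM in CV at day 5, 248 to 253 in MGS at day 5, 17.9 to 27.0 in CV at day 32 and 162 to 181 in MGS at day 32. Of the 12, Cldn5, Tie1 and Sox17 were listed at 0 in CV at day 32, the group with the most Cd34, Tie1 and Sox17 in CV at day 5, and Sox17 in MGS at day 32. Blood progenitor markers summed to 8.38 to 8.67, 63.0 to 64.1, 9.58 to 39.0 and 67.9 to 69.7 TPM in the same order of groups, with Gfi1b at 0 throughout. Ptprc made up 3.33 and 28.5 TPM of these sums in replicates 1 and 2 of CV at day 32. At day 32, 5 of 11 tested endothelial markers were higher in MGS and 0 lower (2 and 3 after quantile normalization, 3 and 3 after correction for length and GC content), and the sum was mostly Cdh5. From day 5 to day 32 in MGS, 7 of these 11 were called lower and 1 higher. Pecam1 went from a mean of 5.87 to 0.0713 TPM and Cldn5 from 23.6 to 0.0831, while Cdh5 went from 167 to 127. Of 4 tested progenitor markers, Kit, which made up most of that sum in MGS, and Gata2 were higher in MGS and Tal1 was lower, at 4.70 ± 2.02 TPM in CV against 0.773 ± 0.0942 (SD, n = 2; -1.64, adjusted p = 0.000511). That split of 2 and 1 became 1 and 2 after quantile normalization or correction for length and GC content. The part of these cells in the levels of Cd34 and Fxyd2 was not tested. Epithelial markers, of which kidney tubules with their Fxyd2 are an instance, summed to 17.6 to 19.4, 146 to 155, 9.99 to 12.9 and 124 to 125 TPM, with Cdh16 at 0 throughout, Krt8 at 0 in CV at day 32 and Cldn7 at 0 in the other groups. The epithelial sum in MGS was mostly Cdh1, at means of 98.2 TPM at day 5 and 104.7 at day 32. Of 4 tested epithelial markers, 4 were called higher in MGS and 0 lower at day 5, and 3 and 1 (Krt19) at day 32.

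Microglial markers, given above, were highest in CV at day 32, the group in which Slco4a1, Fxyd2 and Cd34 peaked. All 8 of them rose from day 5 to day 32 in CV, with a median of 6.06, and all 8 were lower in MGS than in CV at day 32 (limma, Benjamini-Hochberg adjusted p under 0.05). In MGS 5 of the 8 rose and 1 fell between the days, where Slco4a1 differed by -0.16, Fxyd2 by 0.18 and Cd34 by -2.27. The part of microglia in the levels of these 3 genes was not tested. Fibroblast markers summed to 290 to 307 TPM in CV at day 5, 3754 to 3807 in MGS at day 5, 212 to 348 in CV at day 32 and 2179 to 2214 in MGS at day 32, with Dpt at 0 in both CV groups and Pi16 at 0 in CV at day 5. Mural cell markers summed to 2494 to 2818, 419 to 438, 2611 to 2658 and 425 to 425 TPM in that order, with Kcnj8 and Abcc9 at 0 in CV at day 32. The mural sum was mostly Acta2, smooth muscle actin, at 2622 ± 230.1 TPM in CV and 243 ± 14.3 in MGS at day 5 and at 2609 ± 27.3 and 305 ± 4.94 at day 32 (SD, n = 2). Of the 6 mural markers tested, MGS was above CV for 4 and below it for 1 at day 5, and for 5 and 1 at day 32, while 7 of 7 tested fibroblast markers were higher in MGS at both days. The part of these cells in the levels of Sertm1, Mme, Coch and Matn3 was not tested.

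**Figure D4:**
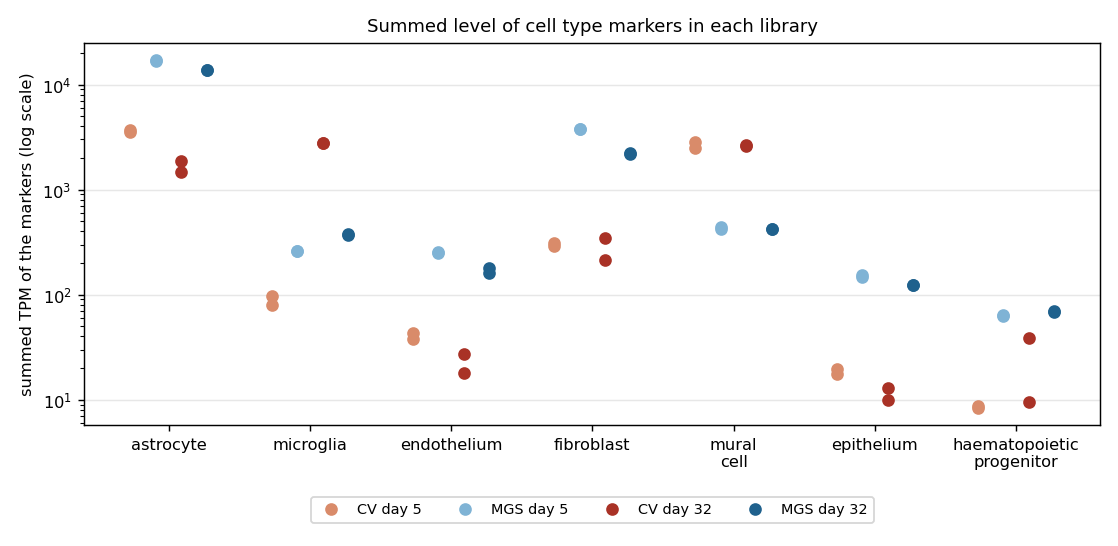
Summed TPM of the markers of 7 cell types in each of the 8 libraries, on a log axis, coloured by culture and day. Microglial markers are highest in CV at day 32 (2751 to 2799 TPM), and the sums of endothelial, epithelial and fibroblast markers, though not each marker, are higher in the MGS groups than in the CV groups.

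The families and pathways of the 9 genes were examined through 92 tested relatives. At day 5 MGS was above CV for 34 of them and below it for 27, 66.3% in all (background, 22.5% higher and 26.4% lower), with a median difference of 0.05 beside -0.14 for all genes. At day 32 MGS was above CV for 64 and below it for 13, 83.7% in all (background, 52.8% higher and 14.8% lower), with a median of 1.25 beside 0.56. The day 32 split became 51 and 23 after median-of-ratios scaling and 47 and 28 after correction for length and GC content. Of the calls across all genes tested, 46.0% were higher in MGS at day 5 and 78.0% at day 32, and the share was 54.4% and 50.1% after median-of-ratios scaling. The counts of all genes at day 5 rest on few libraries: 7291 calls became 4464 and 4429 without replicates 1 and 2 of MGS at day 5.

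**Figure D5:**
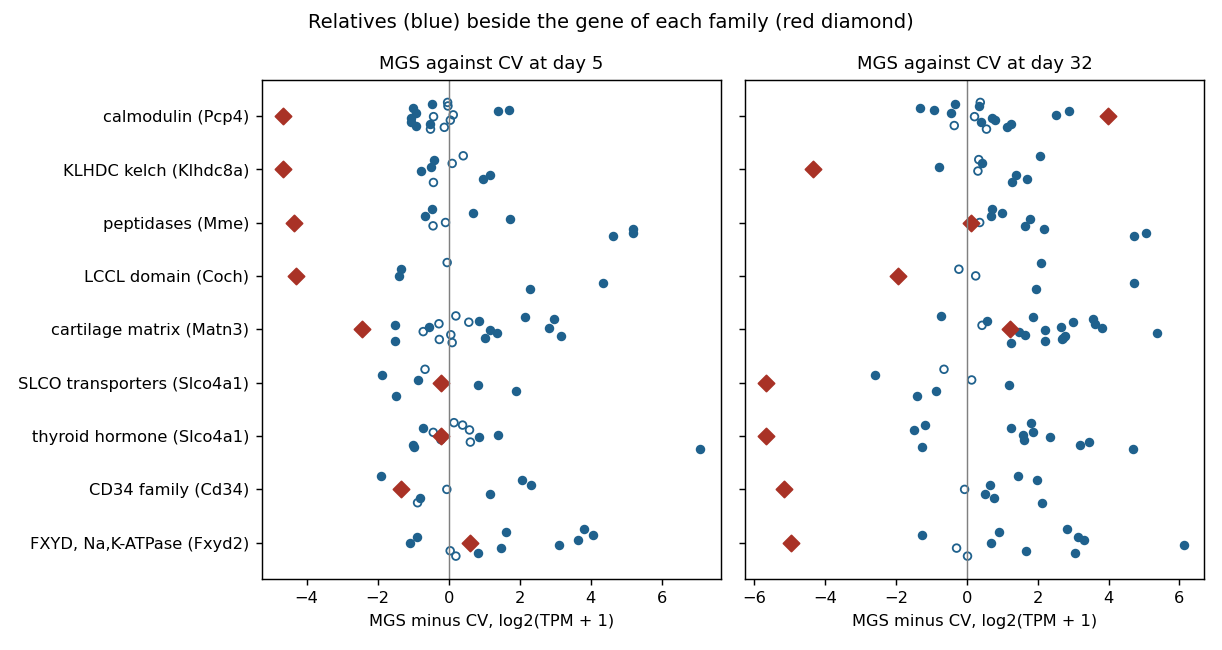
MGS minus CV difference on the scale of log2(TPM + 1) at day 5 (left) and at day 32 (right) for the relatives of each family, as filled circles where called (limma adjusted p under 0.05) and open circles where not, with the chosen gene as a diamond. Relatives lie on both sides of 0 at day 5, and the genes of the cartilage matrix list lie mostly above 0 at day 32.

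Among 16 genes of calmodulin signalling, MGS at day 5 was above CV for 2 and below it for 7, with a median difference of -0.45. At day 32 it was above for 8 and below for 4, and the split became 4 and 6 after median-of-ratios scaling, 5 and 5 with FPKM, 6 and 6 after quantile normalization and 4 and 8 after correction for length and GC content. Pcp4l1, the nearest relative of Pcp4, was lower in MGS at both days. It measured 211 ± 21.2 TPM in CV and 105 ± 7.31 in MGS at day 5 (SD, n = 2), a log2 difference of -1.01 (SE 0.11, adjusted p = 0.000289), and at 490 ± 32.3 and 196 ± 6.63 TPM at day 32, a difference of -1.32 (SE 0.11, adjusted p = 5.16e-05). Gap43, a growth cone protein that binds calmodulin as Pcp4 does, was higher in MGS at both days, by 1.38 (adjusted p = 0.000481) and 2.89 (adjusted p = 8.94e-06). Nrgn, neurogranin of the same calmodulin-binding kind, was higher in MGS by 1.69 at day 5 (adjusted p = 0.00023) and lower at day 32 (-0.93, adjusted p = 0.00302). Its group means were low, from 0.806 to 4.82 TPM. Camk2a, a calmodulin-dependent kinase, was higher by 2.53 at day 32 (adjusted p = 0.000105). Camk2d, another of these kinases, was lower in MGS at day 5 (-1.07, adjusted p = 0.00831), a call lost without replicate 1 of MGS at day 5 (adjusted p = 0.0562) or replicate 2 of CV at day 5 (adjusted p = 0.0633).

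Of 8 other kelch genes of the Klhdc series, 2 had their higher level in MGS and 3 in CV at day 5, and 5 and 1 at day 32. Klhdc8b, the closest in name to Klhdc8a, was higher in MGS at both days, at 38.4 ± 2.68 TPM in CV and 87.9 ± 3.15 in MGS at day 5 and at 36.8 ± 4.40 and 98.1 ± 2.59 at day 32 (SD, n = 2). Its differences were 1.17 (SE 0.12, adjusted p = 0.000205) and 1.40 (SE 0.12, adjusted p = 5.86e-05), where Klhdc8a differed by -4.67 and -4.36. Klhdc1 was higher in MGS by 2.07 at day 32 (adjusted p = 0.000666). Klhdc9 was higher by 0.95 at day 5, a call lost without replicate 2 of MGS at day 5 (adjusted p = 0.0637), and by 1.69 at day 32 (adjusted p = 0.000269). Klhdc7a was lower in MGS at day 5 (-0.78, adjusted p = 0.0442), and lost its call with no filter (adjusted p = 0.06) or without any 1 library of day 5 or of MGS at day 32 (adjusted p from 0.0807 to 0.193).

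Other peptidases that degrade peptides differed among themselves at day 5. Of 9 tested, 5 had the higher level in MGS and 2 in CV at day 5, and 8 and 0 at day 32, where correction for length and GC content gave 5 and 2. Ece1, endothelin-converting enzyme 1 and a relative of neprilysin, was lower in MGS at day 5 (-0.48, adjusted p = 0.0403), as was Ide, the insulin-degrading enzyme (-0.68, adjusted p = 0.0292), both chosen after their values were seen. Dpp4, dipeptidyl peptidase 4, measured 37.9 ± 0.708 TPM in MGS and 0.0621 ± 0.0878 in CV at day 5, and at 35.8 ± 0.833 and 0.115 ± 0.0321 at day 32 (SD, n = 2). Its differences were 5.20 (SE 0.14, adjusted p = 6.69e-07) and 5.04 (SE 0.14, adjusted p = 8.52e-07). Anpep, aminopeptidase N, was higher in MGS by 5.20 (adjusted p = 3.48e-06) and 2.19 (adjusted p = 0.000141), and Enpep, aminopeptidase A, by 4.63 (adjusted p = 9.3e-07) and 4.71 (adjusted p = 8.52e-07). Fibroblast markers, given above, were higher in MGS at the same days, and their part in these 3 peptidases was not tested.

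Coch shares its LCCL domain with 5 other tested genes, of which 2 were above CV in MGS and 2 below it at day 5, and 3 and 0 at day 32 (3 and 2 after median-of-ratios scaling). Crispld1, a secreted protein, was higher in MGS by 4.33 (adjusted p = 9.96e-07) at day 5 and 4.72 (adjusted p = 8.52e-07) at day 32, and its relative Crispld2 by 2.29 (adjusted p = 0.000149) and 1.95 (adjusted p = 0.00023). Vit, the matrix protein vitrin, which like cochlin pairs LCCL with von Willebrand domains, measured 23.4 ± 2.66 TPM in CV and 22.6 ± 1.21 in MGS at day 5 (SD, n = 2; -0.04, adjusted p = 0.86, and above 0 after median-of-ratios scaling, quantile normalization or with FPKM) and was higher in MGS by 2.1 at day 32 (adjusted p = 6.29e-05). The membrane proteins Dcbld1 and Dcbld2 were lower in MGS at day 5, with differences of -1.34 (adjusted p = 0.00152) and -1.39 (adjusted p = 0.00106). At day 32 Dcbld1 differed by -0.23 (adjusted p = 0.354) and Dcbld2 by 0.25 (adjusted p = 0.301). Dcbld1 was called lower after median-of-ratios scaling (-0.79, adjusted p = 0.000851), quantile normalization, correction for length and GC content and with FPKM (adjusted p from 3.15e-05 to 0.0105). Dcbld2 was called lower after median-of-ratios scaling (-0.36, adjusted p = 0.0183), quantile normalization (-0.40, adjusted p = 0.0121) and correction for length and GC content (-0.96, adjusted p = 2.13e-05).

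Genes of a cartilage matrix list were mostly higher in MGS at day 32, as the level of Matn3 was. Beside matrix genes the list holds the transcription factor genes Sox5, Sox6 and Sox9, each called higher in MGS at day 32. Of 18 tested, 8 were above CV in MGS and 3 below it at day 5 (7 and 6 after quantile normalization), and 16 and 1 at day 32, where 14 or 15 were higher under the scalings tried. Their median at day 32 was 2.44 beside 0.56 for all genes. Matn4, a matrilin like Matn3, measured 70.1 ± 5.73 TPM in MGS and 8.29 ± 1.96 in CV at day 5 (SD, n = 2), a difference of 2.95 (adjusted p = 2.7e-05), where Matn3 differed by -2.43. Col11a2, a chain of the fibrillar collagen XI, was at 95.8 ± 2.64 TPM in MGS and 1.36 ± 0.0617 in CV at day 32, a difference of 5.36 (adjusted p = 7.06e-07). Col9a2, a chain of collagen IX, differed by 2.82 (adjusted p = 3.01e-05) at day 5 and 3.83 (adjusted p = 5.26e-06) at day 32, and Epyc, the proteoglycan epiphycan, by 3.17 (adjusted p = 1e-05) at day 5, when it was listed at 0 in both CV libraries. Acan, aggrecan, was higher in MGS by 3.62 at day 32 (adjusted p = 8.52e-07), where both CV libraries listed it at 0.

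Most of the SLCO transporters called at either day were lower in MGS, as the level of Slco4a1 was. Of 6 tested, 2 were above CV in MGS and 3 below it at day 5, and 1 and 3 at day 32. Slco1a5 measured 27.4 ± 3.6 TPM in CV and 6.68 ± 0.628 in MGS at day 5 and at 181 ± 44.5 and 28.5 ± 2.16 at day 32 (SD, n = 2), differences of -1.88 (SE 0.19, adjusted p = 0.00019) and -2.61 (SE 0.19, adjusted p = 2.55e-05). Slco3a1 was lower in MGS at both days, with differences of -1.48 (adjusted p = 0.000457) and -1.42 (adjusted p = 0.000391). Slco2b1 was higher in MGS by 1.89 at day 5 (adjusted p = 7.41e-05) and lower at day 32 (-0.87, adjusted p = 0.00232). Slco2a1, a prostaglandin transporter, was higher in MGS by 1.18 at day 32 (adjusted p = 0.000642), a call lost after quantile normalization (0.24, adjusted p = 0.102) and a value of -0.13 after correction for length and GC content. In CV, 4 of the 6 rose from day 5 to day 32 and 0 fell.

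Among 12 genes of thyroid hormone transport and response, 3 were above CV in MGS and 3 below it at day 5 and 9 and 3 at day 32, the latter under each scaling tried. Hr and Klf9, textbook targets of the thyroid hormone receptor, were higher in MGS at day 32 by 3.20 (adjusted p = 5.36e-06) and 3.45 (adjusted p = 0.000341), while Slco4a1 differed by -5.68. At day 5 Hr was lower in MGS (-1.01, adjusted p = 0.00209). Dio3, which inactivates the hormone, was higher in MGS by 1.39 at day 5 (adjusted p = 0.000455). Ttr, the thyroxine carrier, was higher in MGS by 7.08 (adjusted p = 6.02e-07) at day 5 and 4.68 (adjusted p = 1.09e-06) at day 32. Markers of choroid plexus epithelium, a list that also holds Ttr, summed to 12730 to 17140 TPM in MGS and 165 to 167 in CV at day 5, with Kl at 0 in CV at day 5. At day 32 they summed to 2053 to 2073 and 109 to 124 TPM. Ttr itself was most of the MGS sums, at 12450 and 16840 TPM at day 5 and 1878 and 1857 at day 32, so the sums are no separate measure. Of the 8 markers, 7 were called higher in MGS at day 5 and 1, Otx2, lower, and 8 and 0 at day 32. The part of these cells in the Ttr difference was not tested.

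Relatives of Cd34 differed among themselves. Of 7 tested, 3 were above CV in MGS and 2 below it at day 5, and 6 and 0 at day 32 (3 and 1 after median-of-ratios scaling). Podxl, podocalyxin, was lower in MGS at day 5 (-1.92, adjusted p = 0.00017) and higher by 1.44 at day 32 (adjusted p = 0.000497). Podxl2, endoglycan, was higher by 2.06 (adjusted p = 3.19e-05) and 1.98 (adjusted p = 2.66e-05). Emcn, the sialomucin endomucin of endothelium, was higher by 2.33 at day 5 (adjusted p = 2.02e-05), at 4.24 ± 0.0452 TPM in MGS and 0.0478 ± 0.0676 in CV (SD, n = 2). Crkl, an adaptor reported to bind the tail of CD34, was higher in MGS by 2.12 at day 32 (adjusted p = 0.00485), when Cd34 differed by -5.16.

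Of 11 FXYD proteins and sodium pump subunits, 7 were above CV in MGS and 2 below it at day 5 and 8 and 1 at day 32, where Fxyd2 differed by -4.97. Fxyd5, dysadherin, had a pattern partly like that of Fxyd2: it measured 5.10 ± 0.246 TPM in CV and 101 ± 0.483 in MGS at day 5, and at 223 ± 11.5 and 92.2 ± 5.06 at day 32 (SD, n = 2). It was thus higher in MGS by 4.06 at day 5 (adjusted p = 6.35e-07) and lower at day 32 (-1.26, adjusted p = 4.74e-05). Fxyd1, phospholemman, was higher in MGS by 3.80 at day 5 (adjusted p = 3.17e-06), and Fxyd7, a brain member, by 3.64 (adjusted p = 2.1e-05) at day 5 and 3.31 (adjusted p = 2.24e-05) at day 32. Fxyd6, whose gene ends 3.55 kb before Fxyd2 on the same strand, fell in CV from 309 ± 13.2 to 29.4 ± 2.48 TPM (-3.35, adjusted p = 8.2e-07) while Fxyd2 differed there by 5.76.

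The other genes that lie beside the 9 were compared as well, as the nearest tested gene on each side. Of these 18 neighbours, 7 were below CV in MGS and 4 above it at day 5, and 2 and 13 at day 32 (background, 26.4% and 22.5% at day 5, 14.8% and 52.8% at day 32). The counts were not repeated under other scalings. After median-of-ratios scaling the calls over all genes at day 32 were 5226 higher and 5198 lower in MGS. The neighbours were B3galt5 and Dscam beside Pcp4, Rfxap and Ccna1 beside Sertm1, Cdk18 and Nuak2 beside Klhdc8a, Dhx36 and Plch1 beside Mme, Scfd1 and Strn3 beside Coch, Laptm4a and Wdr35 beside Matn3, Cables2 and Mrgbp beside Slco4a1, Plxna2 and Cd46 beside Cd34, and Fxyd6 and Dscaml1 beside Fxyd2. The 2 lower at day 32 were both beside Klhdc8a: Cdk18, a kinase gene (-2.95, adjusted p = 9.23e-06), and Nuak2. Nuak2, a kinase gene 8.77 kb beyond Klhdc8a, was lower in MGS at both days like Klhdc8a, with differences of -3.19 at day 5 (adjusted p = 7.25e-06) and -2.28 at day 32 (adjusted p = 2.27e-05). Its mean level was 66.2 and 79.6 TPM in CV and 6.38 and 15.4 in MGS. Wdr35, a gene of ciliary transport 1.97 kb beyond Matn3, was lower in MGS at day 5 (-1.07, adjusted p = 0.00793) and higher by 1.22 at day 32 (adjusted p = 0.00303), the directions of Matn3. It rose in MGS from day 5 to day 32, by 1.31 (adjusted p = 0.00512), where Matn3 differed by -0.41. Strn3, a striatin gene on the other strand 2.77 kb from Coch, was lower in MGS at day 5 (-1.52, adjusted p = 0.0333) and higher by 1.85 at day 32 (adjusted p = 0.0109), where Coch differed by -1.95.

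The genes whose level was most like that of each of the 9 across the 8 libraries were taken by Pearson r of log2(TPM + 1), as a description over libraries that share 4 groups. For Pcp4 they were Nog (r = 0.991), Syn2 (0.99) and Nell2 (0.985). Nog, the BMP antagonist noggin, had means of 142 TPM in CV at day 5, 24.0 in MGS at day 5, 26.7 in CV at day 32 and 100.5 in MGS at day 32, and so shared the high groups of Pcp4. For Sertm1 they were Mdh1, Mfsd2a and Hunk (0.995 to 0.997), for Klhdc8a Ccnd1, Maff and Npvf (0.995), and for Mme Pdlim5, Frmd3 and Akap2 (0.996 to 0.997). Ccnd1, cyclin D1, had means of 872 and 1344 TPM in CV and 67.3 and 170.4 in MGS at day 5 and day 32.

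For Coch the closest were Fst, Oit3 and Mtap (r from 0.995 to 0.997), and for Matn3 Shmt1, Hjurp and Apln (0.993 to 0.997). Fst, follistatin, had means of 30.4 and 7.92 TPM in CV and 1.28 and 1.96 in MGS at day 5 and day 32, the order of the groups of Coch. For Slco4a1 they were Sh2d1b1, Cd207 and Scimp (0.997 to 0.998), each listed at 0 outside CV at day 32, where their means were 3.75, 5.74 and 1.88 TPM. For Cd34 they were Litaf, B4galt3 and Abracl (0.991 to 0.992), and for Fxyd2 Rhoh, Sh3bgr and Pilrb1 (0.993 to 0.996). None of the 9 was among the 3 closest to another. The closest pair among the 9 was Slco4a1 and Fxyd2 (r = 0.975), which share their single high group, and the most opposed was Matn3 and Fxyd2 (-0.759).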

How the data were processed

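RNA-seq abundance of 8 libraries was used. TRIzol served for extraction and a directional NEB Ultra II kit for library preparation, per the labels' protocols. The tools named are StringTie 1.3.4d, HISAT2 2.1.0 and bcl2fastq and the builds named are mm10 and hg38, without roles, per the submitters' processing notes. The annotation and the use of strand are not given in the sources used here. Per the file headers, the authors deposited coverage, FPKM and TPM per gene row and library, and a TPM table of the series. The TPM values of each deposited library sum to 1000000. Deposited coverage (mean depth per base) gave the aligned bases, as the most common ratio of coverage to FPKM. The deposited FPKM values served otherwise in an alternative only. Read counts cannot be recovered, so no counting interval is given and the spread between libraries is the error.

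Rows of a gene ID were summed. Genes with at least 1 TPM in at least 2 libraries were tested (14904 of 23420). On log2(TPM + 1), a scale that shrinks the change of low genes, the means of the 4 groups were fitted in 1 model (limma 3.58.1, R 4.3.3) with 4 residual degrees of freedom, a variance trend, two-sided tests and Benjamini-Hochberg adjustment over all genes tested. The threshold was an adjusted p under 0.05. The code was tested on simulated data. No exact permutation test was made, since 2 libraries against 2 allow no two-sided p under 0.333. The labels name no batch. Median-of-ratios scaling, quantile normalization, FPKM, correction for transcript length and GC content (known for 14809 genes), other filters, a pseudocount of 0.1, a replicate block, no variance trend, the series-wide table and leaving out each library were tried.

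The 9 genes and the lists were chosen with earlier results of these data known. Named are all 9 genes, up to 3 called relatives per list and culture contrast with the largest change, each gene of lists with 5 or fewer tested, the 3 genes most like each of the 9, and their neighbours. Under that rule, 1 relative is left out of the text. The time contrasts of the 9 genes were fitted too, but their levels chose the genes, so they are given with no test.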

Additional observations from a re-analysis of the deposited data

Results flagged for a closer look

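For Pcp4, Sertm1, Mme, Coch, Slco4a1 and Cd34, both libraries of day 32 were on one side of both libraries of day 5 in CV and on the other side in MGS. Across all genes tested, 37.7% were called lower at day 32 in CV and 35.0% were called higher in MGS. The share of all genes with opposite directions was not computed, so nothing is read from the number of these genes. The difference between the cultures in the change with time (log2 change in CV minus log2 change in MGS) was -8.64 for Pcp4, -3.68 for Sertm1, -4.48 for Mme and -2.35 for Coch, which were lower at day 32 in CV and higher in MGS. It was 5.46 for Slco4a1 and 3.83 for Cd34, which were higher at day 32 in CV and lower in MGS. These differences were not tested, because they are built from the levels on which the genes were chosen. The differences in MGS were small for Coch (0.41, and -0.02 after quantile normalization) and Slco4a1 (-0.16).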

How the results depend on the processing

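The differences of the 9 genes between the cultures and between the days kept their direction under the alternatives, except those named here. Below 0 in place of above it were the Mme difference at day 32 (-0.45 under median-of-ratios scaling, -0.82 under quantile normalization, -0.21 with FPKM, -1.13 under correction for length and GC content, and -0.52 to 0.76 without 1 library, the lowest without replicate 1 of CV at day 32), the day 32 minus day 5 difference in MGS of Coch (-0.023 under quantile normalization) and that of Fxyd2 (-0.14, -0.32 and -0.012 under the first 3 of these settings, and -0.13 to 0.50 without 1 library, the lowest without replicate 2 of MGS at day 5). Among relatives, Dcbld2 at day 32 was -0.36, -0.40, -0.12 and -0.96 under the same 4 settings and -0.021 to 0.52 without 1 library (the ends without replicates 1 and 2 of CV at day 32), Slco2a1 at day 32 was -0.13 after correction for length and GC content, Dcbld1 at day 32 was -0.49 and 0.03 without replicates 1 and 2 of CV at day 32, and Vit at day 5 was 0.14, 0.12 and 0.086 under the first 3 settings and -0.15 to 0.068 without 1 library, above 0 without replicate 2 of CV or of MGS at day 5 (0.068 and 0.009). The causes were not tested. Leaving out 1 library gave 4429 to 10095 calls over all genes for the cultures at day 5, 4748 to 10583 for time in CV and 2180 to 9733 for time in MGS, and no other alternative moved these totals by over 1.5 times. The counts in a direction moved more under the 4 settings above: lower in MGS at day 32 from 2213 to between 3825 and 5828, higher with time in CV from 2381 to between 3386 and 4069 and lower with time in MGS from 1123 to between 2189 and 3854. They also moved by over 1.5 times for higher in MGS at day 32 (7862, 5226 under median-of-ratios scaling, 4763 under quantile normalization and 4565 under correction for length and GC content) and higher with time in MGS (5212, 3402 under median-of-ratios scaling and 3260 under correction for length and GC content). Where a group was left with 1 library, that library was assumed to vary like the other groups. The correlation of the deviations of same-numbered libraries ran from -0.131 to 0.444 over 6 pairs of groups, and was highest between CV at day 5 and CV at day 32. Whether replicate numbers pair the libraries was not settled, and the fit used above has no pairing. The fit with the replicate block gave 7894 calls for the cultures at day 5, 10440 at day 32, 8529 for time in CV and 7209 for time in MGS, and 64 and 80 calls among relatives at day 5 and day 32. TPM keeps no depth, and the CV libraries are the shallower and noisier ones.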
